A study of Mus musculus with 8 samples.

Results

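Distal H3K4me3 regions are stretches of chromatin that carry trimethylated lysine 4 of histone H3 more than 5 kb from the start of every transcript in the mm9 annotation. Members were chosen by the pooled H3K4me3 tags of the wt and menin-null PILEC libraries. Windows of 200 bp with at least 14 tags were joined over gaps of at most 400 bp, and a region was kept when it was 600 bp or longer and held at least 2 times the tags per 1000000 library tags (RPM) of the pooled PILEC inputs. This gave 14619 enriched regions, of which 1214 were distal and 13405 lay within 5 kb of a start. Because the sum of the 2 PILEC libraries chose the members, their pooled PILEC level, their ratio over PILEC input and their PILEC-to-mESC ratio are a description. The mESC tags, and the split of the PILEC tags between genotypes, were not used in the choice. A weakly marked region could still reach 14 tags per window mostly through the genotype where it is high. Calls among weak members therefore follow in part from the choice.

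The wt cells were TC-1 mouse embryonic stem cells (mESCs) and the menin-null cells were 3.2N mESCs, which are Men1-ko. Both have the genetic background 129S6/SvEvTac and were grown with LIF on irradiated feeder fibroblasts before feeders were removed by differential attachment. The PILECs, pancreatic islet-like endocrine cells, were differentiated from each line in vitro through embryoid bodies. Every combination of genotype and stage is represented by a single H3K4me3 and a single input library. Each genotype is 1 line and there are no replicates, so a test below compares libraries and not conditions.

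H3K4me3 is deposited by the SET1 and MLL methyltransferase complexes and is best known from the starts of active genes and from unmethylated CpG islands, which the CXXC domains of these complexes can recognise. Menin, the product of Men1, is a subunit of the MLL1 and MLL2 complexes. Enhancers are classically marked by monomethylated lysine 4 instead. H3K4me3 far from annotated starts can lie at unannotated promoters, at genes read by RNA polymerase III such as tRNA genes, at CpG islands without a known gene, or at very active enhancers.

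The H3K4me3 libraries held 2432377 and 3517028 tags in wt and menin-null mESCs, against 18773635 and 17682677 for the PILECs, so a ratio in mESCs was less precise than one in PILECs. Across exons 3 to 8 of Men1, the wt inputs of mESCs and PILECs had 17 and 22 tags and both menin-null inputs 0, a count that allows up to 3 tags. Tags within 1 kb of the Pou5f1 start, a pluripotency gene, were 55.9 RPM in wt and 78.5 RPM in menin-null mESCs and 3.68 and 2.43 RPM in the PILECs. The starts of the islet hormone genes Ins1, Ins2, Gcg and Iapp held at most 22 tags in any library, while those of Nes, a neural progenitor gene, and Col1a1, a collagen gene of fibroblasts, held 394 and 204 tags in wt and 282 and 162 tags in menin-null PILECs. Those of Sox2, also a pluripotency gene, and Pax6, also an islet factor gene, held 503 and 378 tags in wt and 531 and 386 tags in menin-null PILECs. Neural cells express both. From mESCs to PILECs, Nes fell from 23.4 to 21.0 RPM in wt and from 25.3 to 15.9 RPM in menin-null cells. In the same order, Sox2 fell from 58.4 to 26.8 and from 82.2 to 30.0 RPM. Pax6 rose from 13.2 to 20.1 and from 20.8 to 21.8 RPM, and Col1a1 from 6.58 to 10.9 and from 6.82 to 9.16 RPM. The starts of the other islet transcription factor genes Neurod1, Isl1 and Nkx2-2 held 136, 154 and 82 tags in wt and 98, 178 and 111 tags in menin-null PILECs. The start of Pdx1, another islet factor gene, held 20 and 24 tags there, close to the hormone genes, so the islet genes examined were marked unevenly in the libraries labelled PILECs. Whether the makeup of the cultures differed between genotypes was not tested. Fewer cells carrying the mark and less mark per cell cannot be told apart in these bulk libraries.

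The central sequence of 6 members is shown because the results below turn on these regions, which include the member with most tags, 2 lost, 1 gained in both stages, 1 gained in mESCs and 1 much higher in mESCs. Each is 300 bp around the window with most pooled PILEC tags, from the plus strand of mm9, and capitals mark CG dinucleotides. The Fat1 region is shown from chr8:46023751-46024050, the Trappc9 intron region from chr15:72639751-72640050 and the Mef2c intron region from chr13:83657351-83657650. The Pla2g2c region is shown from chr4:138262951-138263250, the Gm2420 region from chr5:33015951-33016250 and the Gm10479 region from chr12:20318351-20318650.
Fat1 region: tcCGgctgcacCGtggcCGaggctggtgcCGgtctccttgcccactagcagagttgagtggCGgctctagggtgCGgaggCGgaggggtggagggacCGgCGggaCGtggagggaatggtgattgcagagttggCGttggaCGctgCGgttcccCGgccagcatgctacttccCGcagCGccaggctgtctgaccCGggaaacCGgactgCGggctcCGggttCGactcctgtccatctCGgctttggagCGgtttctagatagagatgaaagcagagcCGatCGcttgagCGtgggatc
Trappc9 intron region: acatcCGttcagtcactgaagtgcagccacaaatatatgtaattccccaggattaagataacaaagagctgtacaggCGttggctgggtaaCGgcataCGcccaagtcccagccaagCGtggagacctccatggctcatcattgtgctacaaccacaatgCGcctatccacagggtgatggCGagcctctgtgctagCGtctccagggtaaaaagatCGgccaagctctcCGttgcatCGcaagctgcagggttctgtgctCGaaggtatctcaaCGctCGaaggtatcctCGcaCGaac
Mef2c intron region: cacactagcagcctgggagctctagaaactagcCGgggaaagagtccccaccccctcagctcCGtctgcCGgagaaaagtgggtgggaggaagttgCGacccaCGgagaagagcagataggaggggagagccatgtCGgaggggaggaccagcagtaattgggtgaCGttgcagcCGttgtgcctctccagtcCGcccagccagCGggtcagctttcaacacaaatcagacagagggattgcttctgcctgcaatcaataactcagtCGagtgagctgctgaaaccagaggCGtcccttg
Pla2g2c region: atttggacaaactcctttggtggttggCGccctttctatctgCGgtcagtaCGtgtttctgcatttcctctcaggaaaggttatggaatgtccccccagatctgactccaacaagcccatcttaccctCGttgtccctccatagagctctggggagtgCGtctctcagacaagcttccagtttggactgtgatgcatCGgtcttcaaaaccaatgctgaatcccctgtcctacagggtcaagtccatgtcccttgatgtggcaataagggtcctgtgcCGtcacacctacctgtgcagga
Gm2420 region: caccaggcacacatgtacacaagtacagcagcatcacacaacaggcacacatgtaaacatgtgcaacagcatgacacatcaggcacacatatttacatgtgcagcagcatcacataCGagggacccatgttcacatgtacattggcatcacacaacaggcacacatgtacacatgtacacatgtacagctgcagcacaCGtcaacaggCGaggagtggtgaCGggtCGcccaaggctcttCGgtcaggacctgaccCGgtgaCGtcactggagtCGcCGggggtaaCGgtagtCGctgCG
Gm10479 region: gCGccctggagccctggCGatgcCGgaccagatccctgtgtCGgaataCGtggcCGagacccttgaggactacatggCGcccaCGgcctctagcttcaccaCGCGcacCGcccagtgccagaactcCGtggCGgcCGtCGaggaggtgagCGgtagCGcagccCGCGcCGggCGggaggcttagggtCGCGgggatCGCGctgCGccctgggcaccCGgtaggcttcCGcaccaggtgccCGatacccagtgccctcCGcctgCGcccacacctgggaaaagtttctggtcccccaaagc
The Fat1 and Gm10479 centres held 26 and 31 CG dinucleotides, and the Trappc9 centre 16. The Gm2420 and Mef2c centres held 13 and 12, and the Pla2g2c centre 7.

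Distal regions were short and moderately marked. Their median length was 1000 bp, with a range from 600 to 7600 bp, against a median of 1800 bp near starts. Of the 1214 members, 859 lay between genes, 214 in introns and 141 overlapped an exon. The median distance to the nearest start was 16.4 kb and the largest 561 kb, and 863 members were over 10 kb away, 201 over 50 kb and 64 over 100 kb. The median level per length was 7.19 and 7.11 RPM per kb in wt and menin-null mESCs and 6.11 and 5.09 RPM per kb in wt and menin-null PILECs. Near starts the medians were 14.8, 17.2, 15.4 and 13.9 RPM per kb in the same order, so distal regions carried the lower density in all 4 libraries. The members took 1.49%, 1.65%, 1.43% and 1.28% of all tags of these libraries and between 0.0805% and 0.185% of the input tags.

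**Figure D1:**
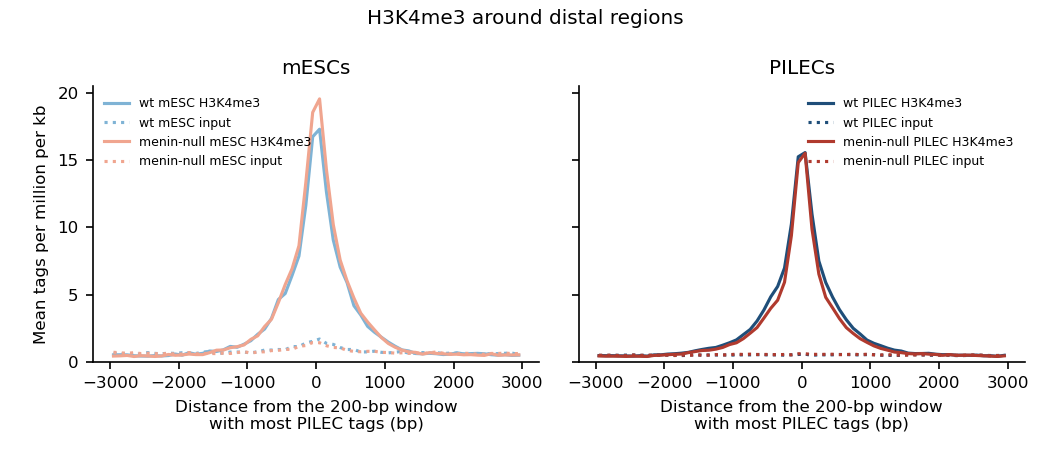
Mean RPM per kb (y axis) against distance in bp from the 200-bp window with most pooled PILEC tags (x axis), over the 1214 distal regions, with H3K4me3 as solid and input as dotted lines. H3K4me3 formed 1 sharp peak in each of the 4 libraries, and the wt and menin-null mESC inputs rose to 1.69 and 1.43 RPM per kb at the centre.

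The profile around the members showed a peak in every H3K4me3 library. The mESC inputs also rose at the centre, with a median of 1.18 RPM per kb in wt and 1.00 in menin-null mESCs over the members, against 0.507 and 0.552 in the PILEC inputs. The PILEC input over the members had a median density of 1.43 times the genome mean, and 9 members were over 3 times that mean. Of the members, 1039 were above input in the pooled mESC libraries, that is 85.6%, against 94.6% of all enriched regions (exact conditional binomial test, 1-sided, Benjamini-Hochberg adjusted over all regions, and at least 2 times the input). The other 175 members were not detectable above input at the mESC depth.

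The mm9 annotation may lack some promoters, so the starts of RefSeq genes were also placed on mm9 by their sequence. A RefSeq start lay within 500 bp of 230 members (18.9%), against 74.1% of regions near starts and 5.93% of the same members moved 10 kb along the chromosome. These members had a median of 9.75 RPM per kb in wt PILECs, against 5.69 for the other 984. Examples were the region near Mrps33 on chromosome 6 with a RefSeq start of Tmem178b, and the region in a Kcnq1 intron with that of Kcnq1ot1.

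Distal regions were GC-rich and rich in CpG, though less so than regions near starts. The central 300 bp had a median GC content of 59.3% and a CpG observed-over-expected ratio of 0.63, against 64.0% and 0.74 near starts and 45.7% and 0.18 in windows moved 10 kb. With at least 50% GC and a ratio of at least 0.6 as the definition of a CpG-rich centre, 621 members (51.2%) had one, against 73.1% near starts and 3.47% of moved windows. Of the CpG-rich members 94.8% were above input in mESCs, and of the other 593 members 75.9%. In wt mESCs the median level of the CpG-rich members was 9.87 RPM per kb and that of the others 5.48, and in wt PILECs it was 7.28 and 5.06.

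**Figure D2:**
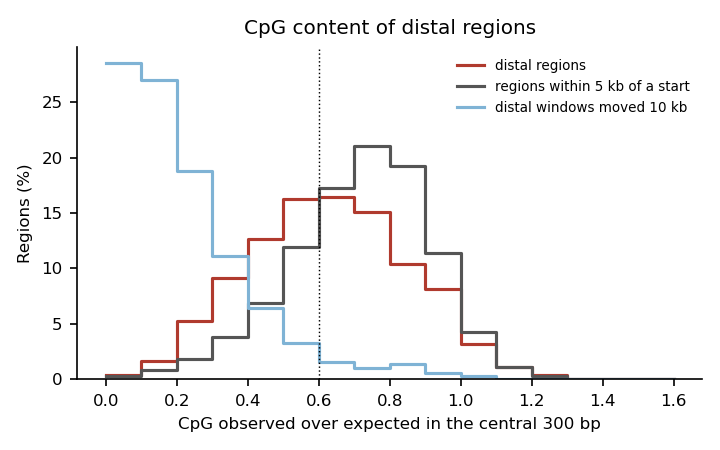
Share of regions (y axis, percent) by the CpG observed-over-expected ratio of the central 300 bp (x axis, bins of 0.1), for distal regions, regions within 5 kb of a start and windows of the distal regions moved 10 kb, with a dotted line at 0.6. Distal regions lay between the other sets, with a median of 0.63 against 0.74 near starts and 0.18 in moved windows.

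Short sequence motifs were counted as letters on both strands of the central 300 bp, where a match is not evidence of binding. The GC box GGGCGG, bound by SP family factors, was found in 39.0% of members, 47.9% of regions near starts and 6.35% of moved windows. The TATA box TATAAA was found in 5.85%, 2.63% and 19.5%, and the CCAAT box CCAAT in 24.7%, 18.9% and 35.1%. The SOX motif ACAATG was found in 10.4%, 5.43% and 14.7%, the GATA motif AGATAA in 8.15%, 4.01% and 15.5%, and the E-box CANNTG, which bHLH factors bind, in 70.2%, 65.6% and 80.7%. The CTCF core motif was found in 3.13% of members and 2.97% of moved windows. AP-1 TGANTCA, FOX TGTTTAC and POU octamer ATGCAAAT were found in 5.11%, 3.21% and 1.73% of members and 9.32%, 3.30% and 2.31% of moved windows. The remaining motifs were rare but more frequent in members. ETS CCGGAAGT, CRE TGACGTCA, RFX and NRF1 were found in 1.40%, 1.15%, 0.494% and 0.412% of members. In moved windows the shares were 0.248%, 0.413%, 0% and 0.0825%. Moved windows were lower in GC, and how far base composition sets these shares was not tested.

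Over whole regions the B box, an internal promoter element of tRNA genes, matched in 42 members (3.46%), in 265 regions near starts (1.98%) and in 7 of the moved regions of the same length. In the central 300 bp alone it was found in 0.247% of members and 0.328% of regions near starts. It was searched after the first results were seen. Chromosome 13 held 88 members, 14.3% of its enriched regions. Of these, 27 lay between 21250001 and 23611600, in the stretch of the histone and tRNA genes, and 17 of the 27 had a B box. Members with a B box were strongly marked, with a median of 432 tags in wt and 413 tags in menin-null PILECs and 10.5 RPM per kb in wt PILECs.

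The members with most tags were marked in all 4 libraries. The region 10.8 kb from Fat1, a protocadherin gene, held 104 and 124 RPM in wt and menin-null mESCs and 109 and 101 RPM in wt and menin-null PILECs. Region values below keep this order where the libraries are not named. The region of 4200 bp near U1 small nuclear RNA genes on chromosome 3, with 4 B boxes, held 147, 176, 1630 and 1677 tags. The region 7.8 kb from Rnf4, a ubiquitin ligase gene, with a RefSeq start of Rnf4 itself, held 76.9, 107, 78.9 and 80.6 RPM. The region of Zfp541 on chromosome 7 held 50.2, 70.8, 100 and 99.0 RPM and that with the Tmem178b start 28.0, 33.0, 81.2 and 86.8 RPM. None of these 5 differed 2-fold between genotypes in either stage. The longest member, 7600 bp near Trim27 on chromosome 13, held 47.3, 50.9, 73.1 and 82.4 RPM and 3 B boxes.

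The comparison of menin-null with wt PILECs asked where the mark differed without menin in the differentiated cells. Of the 1214 distal regions 87 were lost, meaning at least 2-fold lower in menin-null PILECs after adding 1 tag to each count with an adjusted p of at most 0.05, and 20 were gained. That is 7.17% and 1.65%, against 2.11% and 0.479% of all enriched regions. Without the test, 87 members were 2-fold lower and 20 higher, against 2.13% and 0.479% of all regions. The median log2 ratio of menin-null over wt was -0.24 in distal regions, -0.11 near starts and -0.11 over all regions. It was below 0 in 913 members (75.2%), against 71.9% of all regions. The tags summed over all members gave a log2 ratio of -0.16 (95% interval -0.17 to -0.15), which covers counting error only, and those of the regions near starts -0.10 (-0.10 to -0.10). With the library sizes taken from the tags near starts the summed ratio of the members was -0.06 and 68 were lost and 25 gained. The shares of all enriched regions lost and gained with this scaling were not computed, so these counts have no background beside them. Most members, 1107 of 1214, were called in neither direction.

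**Figure D3:**
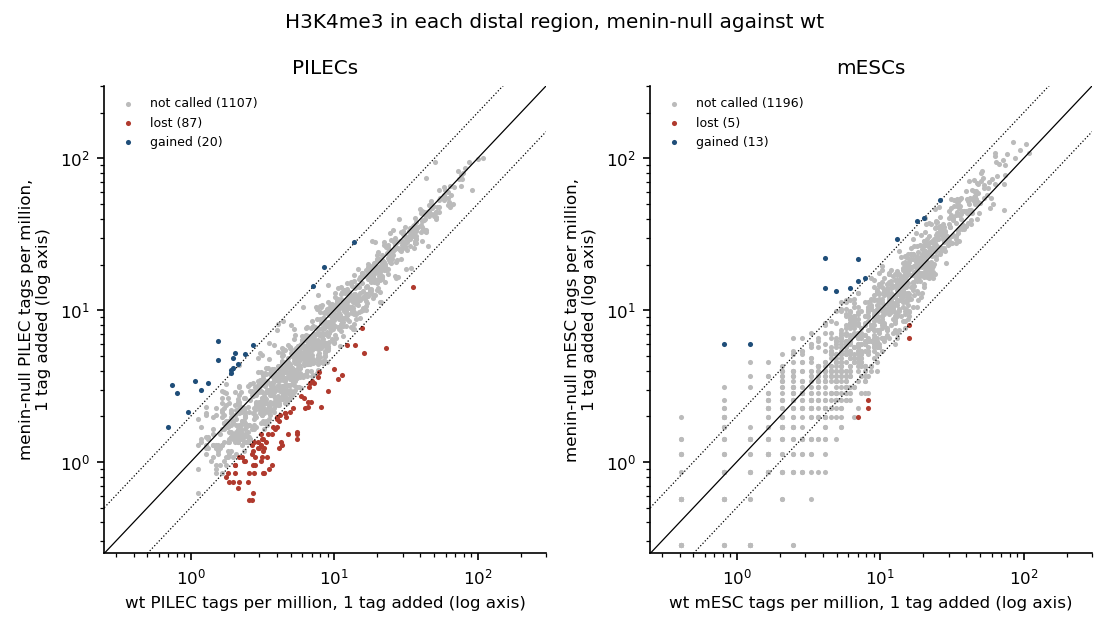
Menin-null against wt RPM in each of the 1214 distal regions, with 1 tag added, on log axes, for PILECs (left) and mESCs (right); the solid line marks equal values, dotted lines 2-fold, and colours the called regions. Lost regions outnumbered gained ones in PILECs (87 and 20) and in mESCs 13 were gained and 5 lost, which became 2 and 4 with the library sizes taken from tags near starts.

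Lost regions, like gained ones, were mostly weakly marked. A weak region can enter mostly through the library where it is high, so such calls are partly set by the choice. Ordered by pooled PILEC tags, the lowest 404 members, with 30 to 131 tags, held 63 of the 87 lost regions, the next 405 held 19 and the highest 405, with 364 to 3833 tags, held 5. The gained regions numbered 14, 3 and 3 in the same bins. Regions near starts within the same limits of tags were lost in 11.2%, 5.25% and 0.306% of cases, against 15.6%, 4.69% and 1.23% of the distal ones. Tags were not matched within these limits. In the highest bin the median of wt PILEC tags was 379 in distal regions and 670 near starts, and the gaps between the shares were not tested.

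**Figure D4:**
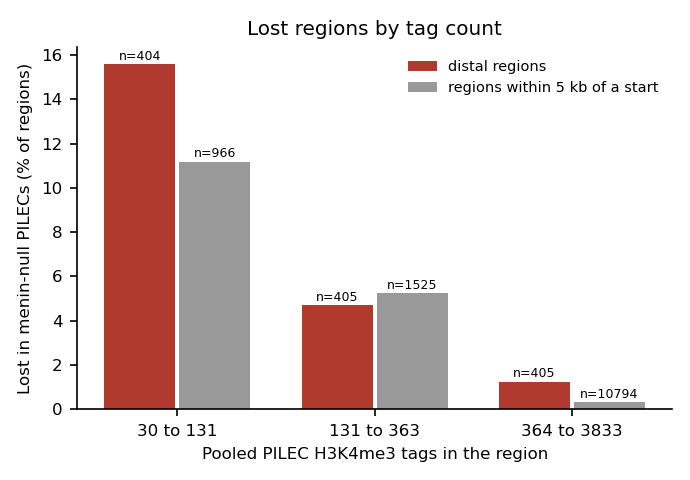
Share of regions lost in menin-null PILECs (y axis, percent) by pooled PILEC H3K4me3 tags (x axis), for distal regions and for regions within 5 kb of a start within the same limits of tags; n is the number of regions. Loss fell from 15.6% to 1.23% of distal regions as tags rose.

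The share lost varied among kinds of members. In introns 30 of 214 were lost (14.0%), between genes 48 of 859 (5.59%) and in exons 9 of 141 (6.38%). Of the 175 members not above input in mESCs 30 were lost (17.1%), against 57 of 1039 (5.49%). Of CpG-rich members 32 of 621 were lost (5.15%), and of the others 55 of 593 (9.27%). With a RefSeq start the share was 12 of 230 (5.22%) and without one 75 of 984 (7.62%). Of the 42 members with a B box 0 were lost and 2 gained, and their median log2 ratio was 0.04. Median wt PILEC tags differed between these classes, 92 in introns, 134 between genes, 57 where mESCs were not above input and 432 with a B box, and the shares were not adjusted for them.

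The region 16.5 kb from Meis2, a TALE homeobox gene, at chr2:115681601-115682200 held 3 tags in each mESC library and 47 and 9 tags in wt and menin-null PILECs (log2 ratio -2.30, -3.51 to -1.25, adjusted p = 1.21e-05, exact binomial test). It was not detectable above input in mESCs. The region in Casc1 and Gm15543 on chromosome 6 held 2, 0, 50 and 10 tags in the same order of libraries (log2 ratio -2.24, -3.38 to -1.24). The region of 1200 bp in an intron of Bbx, an HMG-box gene, on chromosome 16 held 4, 5, 103 and 24 tags (log2 ratio -2.02, -2.72 to -1.36). In these regions wt PILECs were the highest of the 4 libraries. They also gave most of the pooled tags by which these regions were chosen, so this is partly set by the choice.

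The region of 3400 bp at chr15:72637801-72641200 lay in an intron of Trappc9, a gene whose introns hold the imprinted non-coding gene Peg13. It held 19 and 7 tags in the mESCs and 433 and 98 tags in the PILECs, wt first, that is 7.81, 1.99, 23.1 and 5.54 RPM. Menin-null was lower than wt at both stages, with log2 ratios of -2.06 (-2.39 to -1.74, adjusted p = 1.05e-43, exact binomial test) in PILECs and -1.97 (-3.47 to -0.66, adjusted p = 0.0204) in mESCs. In mESCs the pooled H3K4me3 was not above input, which held 17 and 9 tags there. It was the only one of the 87 regions lost in PILECs that was also called lost in mESCs. Only 5 members (0.412%) were called lost in mESCs, against 0.192% of all enriched regions, so little overlap was possible. With tags counted at their 5' end the Trappc9 intron region was not called in mESCs (adjusted p = 0.0716, exact binomial test).

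All 3 members between 77236401 and 77423400 on chromosome 16, around 2810055G20Rik, were lost. This group was singled out after its values were seen. The first, of 3600 bp, held 2, 0, 301 and 91 tags (log2 ratio in PILECs -1.64, -1.99 to -1.30). The second held 0, 4, 102 and 26 tags (-1.89, -2.57 to -1.25), and the third, of 5400 bp with a RefSeq start of 9430053O09Rik, 2, 2, 665 and 251 tags (-1.32, -1.53 to -1.11). All 3 were nearly unmarked in mESCs, and the PILEC inputs within 5 kb of the first held 121 tags in wt and 112 in menin-null.

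Of the 20 gained regions 18 were above input in mESCs, where 85.6% of all members were. The region in an intron of Arhgap15, a GTPase-activating protein gene, on chromosome 2 held 15, 30, 13 and 56 tags, that is 6.17, 8.53, 0.692 and 3.17 RPM (log2 ratio in PILECs 2.19, 1.30 to 3.19). Wt PILECs were the lowest of the 4 libraries. The region was chosen mostly through its menin-null PILEC tags.

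The region 17.3 kb from Pla2g2c, a secreted phospholipase gene, at chr4:138262401-138263400 held 9, 77, 28 and 110 tags, or 3.70, 21.9, 1.49 and 6.22 RPM. It was gained at both stages, with log2 ratios of 2.06 (1.45 to 2.71, adjusted p = 7.14e-12, exact binomial test) in PILECs and 2.56 (1.57 to 3.75, adjusted p = 2.88e-07) in mESCs. The region in an intron of Gm13261, 5.3 kb from Sfmbt2, an imprinted Polycomb gene, held 11, 46, 14 and 49 tags and was also called at both stages (log2 ratios 1.89, 1.01 to 2.87, and 1.53, 0.56 to 2.63), although the mESC call was lost with the library sizes taken from tags near starts. The region in Ptgis, the prostacyclin synthase gene, held 31, 50, 28 and 82 tags (log2 ratio in PILECs 1.64, 1.00 to 2.31). The Pla2g2c, Gm13261 and Ptgis regions were chosen mostly through their menin-null PILEC tags. Their PILEC gains are therefore partly set by the choice, while the mESC tags were not used in it.

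Of the 5 members between 18142401 and 20318800 on chromosome 12, 4 were gained in menin-null PILECs, a group singled out after its values were seen. The centres of the 4 gained members share near-identical stretches of sequence, so their gains are not independent. How tags were placed among such sequences was not tested. The menin-null library gave most of the pooled PILEC tags of these gained members, so their PILEC gains are partly set by the choice. The 5 members were CpG-rich and held more in mESCs than in PILECs. The one 98.7 kb from Gm5784 held 26, 51, 19 and 59 tags (log2 ratio in PILECs 1.72, 0.95 to 2.55) and the one shown above, 103 kb from Gm10479, 100, 186, 36 and 84 tags (1.31, 0.73 to 1.91). The one 80.2 kb from Gm10480 held 63, 187, 35 and 70 tags, with log2 ratios of 1.09 (0.48 to 1.72) in PILECs and 1.04 (0.62 to 1.47) in mESCs. Its PILEC value was 0.50 when divided by the input ratio within 5 kb, where the inputs held 28 and 40 tags, and it was then not called. Both the PILEC and the mESC call were lost with tags counted at their 5' end, and the mESC call also with the scaling by tags near starts.

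**Figure D5:**
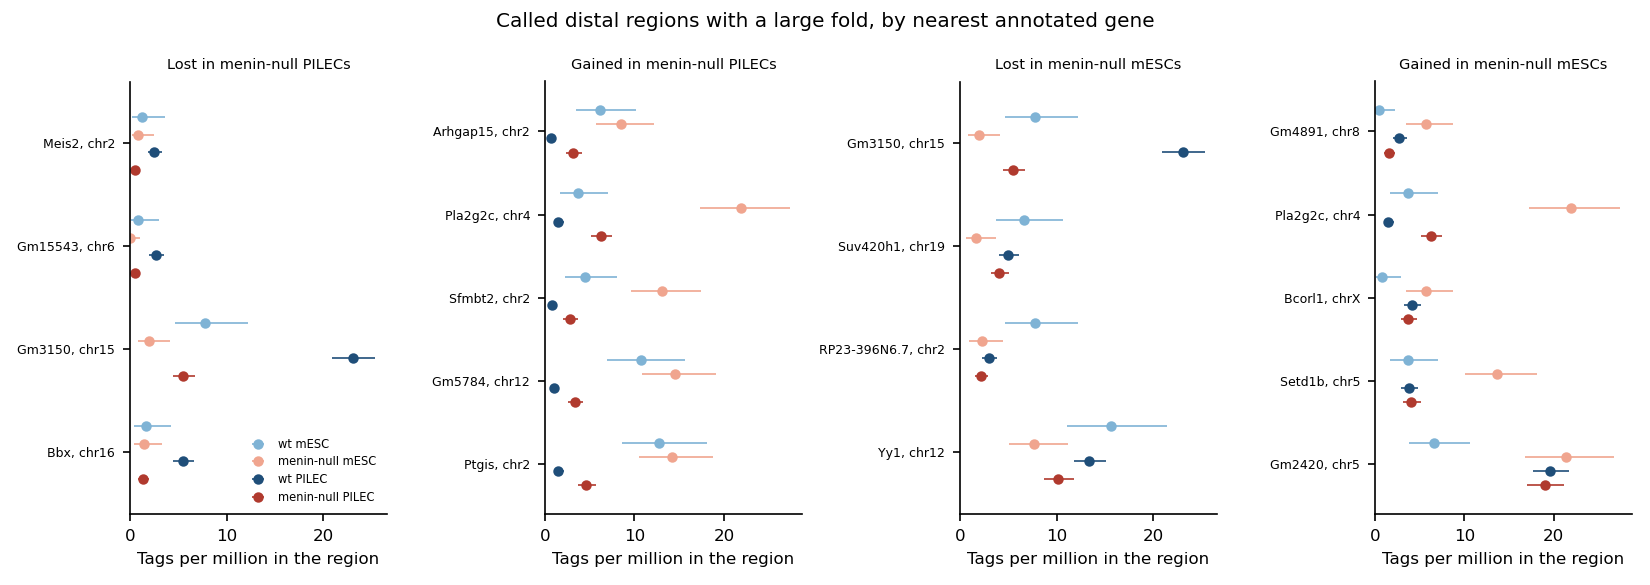
RPM in the region (x axis) for called distal regions with a large fold, lost or gained in PILECs and in mESCs (4 lost and 5 gained in each, some called regions with a fold as large not being shown), named by nearest annotated gene and chromosome; points are the 4 H3K4me3 libraries and bars exact 95% Poisson intervals for counting error. The Trappc9 intron region (nearest start Gm3150) was lower in menin-null cells at both stages and the Pla2g2c region higher at both.

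The nearest protein-coding starts mostly did not show a like difference. Of the 87 lost regions 72 had a nearest coding start with at least 20 PILEC tags within 1 kb, and these starts had a median log2 ratio of -0.12, with 2 of them 2-fold lower. The starts nearest to members that were not called had a median of -0.08, with 17 of 895 at least 2-fold lower, and those of 16 gained regions 0.34. The limit of 20 tags, wt and menin-null PILECs together, is low, since the Ins2 start held 17 and 22 tags in them. Some of these starts may carry too little mark for a loss to show, and how many was not tested. Across 983 members the log2 ratios of the member and its nearest start had a Pearson correlation of 0.15 and a Spearman correlation of 0.14, which is a description, since neighbouring members can share a start and all values come from the same libraries.

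In mESCs, where libraries were shallower, called regions were few. Of the 1214 members 5 were lost and 13 gained in menin-null mESCs, that is 0.412% and 1.07%, against 0.192% and 0.438% of all enriched regions. With 1 tag per position and strand 3 were lost and 8 gained. Tags repeating a position and strand were 11.4% of the wt and 4.17% of the menin-null mESC H3K4me3 library. Without the test, 95 members were 2-fold lower and 52 higher, against 2.07% and 1.57% of all regions. The added tag pulls regions with few tags towards lower, since the menin-null library is deeper. The median member held 19 tags in wt and 26 in menin-null mESCs, so these counts include much counting error. The Casc1 region, with 2 and 0 tags, had a log2 ratio of -2.12 with the added tag. The median log2 ratio was -0.02 in distal regions, 0.22 near starts and 0.21 over all regions, so the members were lower relative to the other regions. The tags summed over the members gave a log2 ratio of 0.15 (0.13 to 0.16) with all tags as the library size, and -0.12 (-0.14 to -0.10) with the tags near starts, so its direction turned with the scaling. With that scaling 4 members were lost and 2 gained, so that gained regions no longer outnumbered lost ones. When each ratio was divided by the input ratio within 5 kb, whose own counting error the test leaves out, 42 were lost and 41 gained. Tags near starts were 42.2% of the wt and 50.8% of the menin-null mESC library. With the PILEC libraries thinned to the mESC totals in a single random draw, 15 members were lost and 3 gained in PILECs, against 5 and 13 in mESCs. The members were still those chosen with all PILEC tags. Weak members that entered mostly through 1 PILEC genotype therefore stayed in the PILEC counts, and the mESC tags had no part in the choice. The shares of all enriched regions called under this thinning, and under the changed duplicates, scaling and input above, were not computed.

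The largest gain in mESCs lay 7.7 kb from Gm4891 on chromosome 8, with 1 and 20 tags in the wt and menin-null mESCs and 51 and 28 tags in the PILECs (log2 ratio 3.79, 1.15 to 9.16). The region 40.6 kb from Bcorl1, a BCL6 corepressor-like gene, on the X chromosome held 2, 20, 78 and 66 tags (log2 ratio 2.79, 0.75 to 5.93). The region at an exon of Setd1b, which encodes an H3K4 methyltransferase, on chromosome 5 held 9, 48, 71 and 72 tags, or 3.70, 13.6, 3.78 and 4.07 RPM (log2 ratio 1.88, 0.84 to 3.10). The region of chr5:33015401-33016400, 50.6 kb from Gm2420, held 16, 75, 368 and 336 tags (1.70, 0.90 to 2.58, adjusted p = 0.000209, exact binomial test). In all 4 the PILEC libraries of the genotypes differed by less than 2-fold. The calls at Gm4891, Bcorl1 and Setd1b, but not that at Gm2420, were lost with the library sizes taken from tags near starts, where their log2 ratios with the added tag were 2.59, 2.01 and 1.49. The Bcorl1 call was also lost with 1 tag per position and strand.

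The genotype ratio itself was compared between the stages by an exact test of the 4 tag counts. It differed at least 2-fold in 55 members (4.53%), against 3.64% of all enriched regions. It was lower in PILECs in 47 members and higher in 8, against 3.28% and 0.363% of all regions. With the library sizes taken from tags near starts, it was lower in 9 members and higher in 13, against 0.383% and 0.711% of all regions, so the prevailing direction turned with the scaling.

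Besides the Trappc9 intron region, 4 members were lost in menin-null mESCs, of which 3 are described. The region 22.8 kb from Suv420h1, an H4K20 methyltransferase gene, held 16, 6, 93 and 72 tags (log2 ratio in mESCs -1.95, -3.59 to -0.52) and lost its call under all 4 alternatives run on single regions, and that on chromosome 2, 65.5 kb from Pip4k2a, 19, 8, 56 and 38 tags (-1.78, -3.18 to -0.52), which was not called with 1 tag per position and strand. The region 34.8 kb from Yy1 on chromosome 12 held 38, 27, 251 and 180 tags (-1.03, -1.79 to -0.28), and its mESC inputs within 5 kb held 40 tags in wt and 24 in menin-null. Divided by that input ratio its value was -0.48 and it was not called, nor was it with 1 tag per position and strand. It lies in a stretch of chromosome 12 where the menin-null mESC input was lower as a whole, by a log2 ratio of -0.95, with 7 members.

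Between the stages 786 members were within 2-fold in wt cells, 172 (14.2%) were at least 2-fold higher in PILECs and 256 (21.1%) at least 2-fold higher in mESCs, against 10.7% and 9.99% of all enriched regions. The median log2 ratio of PILECs over mESCs was -0.14 in wt and -0.36 in menin-null cells, and over all enriched regions 0.05 and -0.27. These ratios and counts include 1 tag added to each library. Since the mESC libraries are shallower, this pulls regions with few tags towards mESCs. The Meis2 region, with 1.23 RPM in wt mESCs and 2.50 RPM in wt PILECs, had a log2 ratio of 0.64. Members held a median of 19 tags in wt mESCs, against 68 near starts. How far this sets the tilt towards mESCs was not tested. The members most raised in wt PILECs were almost unmarked in mESCs. The region on chromosome 1, 24.5 kb from A130050O07Rik, held 5 tags in each mESC library and 1214 and 843 tags in wt and menin-null PILECs. A region on chromosome 16 held 3, 5, 604 and 439 tags. Its nearest protein-coding start, that of Robo1, an axon guidance receptor gene, lay 632 kb away. The region in an intron of Slc17a6, a vesicular glutamate transporter gene, held 0, 0, 117 and 83 tags. The members most raised in wt mESCs were the Gm10479 and Gm10480 regions of chromosome 12, with 41.1 and 25.9 RPM in wt mESCs and 1.92 and 1.86 RPM in wt PILECs. They were followed by the region in an intron of Fam113b on chromosome 15 (17.3 and 1.38 RPM), a second region near Gm5784 (27.1 and 2.34 RPM) and one 31.4 kb from Eef1a1, a translation elongation factor gene (44.8 and 4.05 RPM). The chromosome 12 regions among these share near-identical stretches of sequence and are not independent.

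Few members had a marker gene as their nearest coding gene. Of 8 pluripotency genes 1 did, Klf4, with 2 members that held 26, 23, 161 and 107 tags and 18, 23, 208 and 128 tags, neither of them called. Of 23 islet and endoderm genes 4 did, each with 1 member and 0 called. They were Foxa1 (14, 27, 48 and 51 tags), Mafa (28, 48, 55 and 54), Sox17 (29, 49, 250 and 253) and Gata4 (30, 29, 65 and 33). These genes encode endoderm and islet transcription factors. No distal region had an islet hormone gene as its nearest coding gene.

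Neural genes had 5 members, at 3 of the 8 genes of the list found in the annotation, and 2 were lost, where 7.17% of all members and 2.11% of all enriched regions were. Pax3, a neural crest and myogenic factor, had 3 members. The one in its intron held 16, 15, 115 and 46 tags and was lost (log2 ratio -1.24, -1.76 to -0.73, adjusted p = 6.72e-06, exact binomial test), while its value of -0.92 when divided by the input ratio within 5 kb did not pass 2-fold. The other two held 2, 4, 89 and 63 tags and 36, 55, 392 and 200 tags and were not called. The region 5.9 kb from Otx2, an anterior neural homeobox gene, held 18, 21, 74 and 33 tags and was lost (-1.08, -1.72 to -0.47), but not with the library sizes taken from tags near starts (-0.95). The starts of Pax3 and Otx2 had log2 ratios of -0.93 and -0.39.

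Muscle genes had 2 members, both nearest to Mef2c, of which 1 was lost, where 7.17% of all members were. The one 220 kb from the Mef2c start held 16, 23, 172 and 136 tags (log2 ratio -0.25, -0.59 to 0.08) and was not called. The one in the Mef2c intron, shown above, held 7, 13, 116 and 39 tags (log2 ratio -1.49, -2.05 to -0.95, adjusted p = 1.26e-07, exact binomial test). Fibroblast and matrix genes had 2, near Dcn (6, 4, 210 and 143 tags) and Twist1 (4, 11, 62 and 42 tags), with 0 called. The imprinted list had 1 member, which overlaps the start of Kcnq1ot1, the non-coding RNA of the Kcnq1 imprinted cluster, with 39.9, 43.2, 74.5 and 73.0 RPM and a log2 ratio of -0.03 (-0.14 to 0.08) in PILECs. The list of H3K4 methylation and menin partner genes had 1, at Setd1b. The 4 Hox clusters and the Dlk1-Meg3 locus, each with 10 kb added on both sides, held 0 distal regions, because each of their enriched regions, from 3 in Dlk1-Meg3 to 17 in HoxB, lay within 5 kb of a start.

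Just inside the limit of 5 kb lay the Casc1 region, 5006 bp from a start, with 2.66 RPM in wt and 0.566 in menin-null PILECs, and a region 5008 bp from a 7SK gene on chromosome 18 with 11.4 and 8.31 RPM. Just outside lay 2 regions at 4986 bp, one near a U6 gene on chromosome 15 with 3.52 and 1.53 RPM and one near Cilp2 on chromosome 8 with 3.14 and 4.07 RPM. The member closest to the input limit, near Egln3 on chromosome 12, had 2.04 times the pooled PILEC input.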

How the data were processed

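H3K4me3 and input DNA of wt and menin-null mESCs and PILECs were sequenced, 1 library each, 8 in all. The authors aligned the reads to mm9 and kept those with a unique location and few mismatches, and they deposited 1 line per read (tag) with its position, so counts are numbers of tags, without any normalization. The aligner is not given in the sources used here. The authors also deposited a score per tag, not used here. In the files, 1.04% to 1.81% of tags list more than 2 mismatched bases. Tags repeating a position and strand, 4.17% to 11.5% of the H3K4me3 libraries, were kept.

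Each tag was moved 125 bp from its 5' end, which is the middle of a fragment of 250 bp, and counted in Python (3.11.15) with pandas (2.3.3), scipy (1.17.1) and numpy (2.4.6). Plots used matplotlib (3.10.9). Counts were scaled to 1000000 tags of the library total (RPM). Starts came from the GENCODE annotation of mm9. The counts of 2 libraries in a region were compared by the exact conditional binomial test, with 95% Clopper-Pearson limits, and p was adjusted by Benjamini-Hochberg over all 14619 enriched regions. A call also needed 2-fold after 1 tag was added to each count. Printed log2 ratios of single regions are without the added tag. Intervals cover counting error only. The test was also run on simulated counts, and that outcome is not reported here. RefSeq promoter sequences (GRCm38) were placed on mm9 where at least 2 of 3 stretches of 32 bases matched, and 30551 of 32851 had 1 place. Repeats were not assessed, since the genome used here does not mark them.

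Members, marker lists and tests were chosen with earlier results of these data known. Regions named are the 5 called regions with the largest fold each way per stage, the 5 with most tags, the 3 longest, the 5 with the largest stage difference each way in wt cells, those at the limits and those whose nearest coding gene is on a marker list. Some of these are not reported here. The classes by CpG content, RefSeq start, B box and tag count, and the groups on chromosomes 12, 13 and 16, were chosen after values were seen. Alternatives changed duplicates, tag position, scaling, input, window threshold, length, input fold, distance, starts, fold, use of the adjusted p and depth. Expression data of the study were not used here.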

Additional observations from a re-analysis of the deposited data

Results flagged for a closer look

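The genotype ratio of menin-null over wt differed between PILECs and mESCs by at least 2-fold in 55 of the 1214 distal regions (4.53%), against 3.64% of all enriched regions, by an exact test of the 4 tag counts of each region, adjusted by Benjamini-Hochberg over all 14619 regions. In 47 of them the ratio was lower in PILECs and in 8 it was higher, against 3.28% and 0.363% of all regions. With the library sizes taken from tags near starts these were 9 and 13, against 0.383% and 0.711%, so the prevailing direction turned with the scaling. The libraries have no replicates, so the differences compare 4 libraries.

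Among the regions named in the report, 5 passed this test. The PILEC log2 ratio minus the mESC log2 ratio, with 1 tag added to each count, was by the same exact test -3.62 at Gm4891 (adjusted p = 0.000705), -2.43 at Bcorl1 (0.0153), -1.67 at Gm2420 (0.00015) and -1.65 at Setd1b (0.012), all of which were gained in mESCs alone. It was 1.46 at Ptgis (0.0134), gained in PILECs alone. With the library sizes taken from tags near starts, Gm4891 (-3.25, adjusted p = 0.0168, exact test), Gm2420 (-1.30, 0.0234) and Ptgis (1.83, 0.0079) still passed, and Bcorl1 (-2.06, 0.153) and Setd1b (-1.29, 0.187) did not, while the Gm10479 region (1.30, 0.0089) passed with that scaling alone. The menin-null library gave most of the pooled PILEC tags by which the Ptgis and Gm10479 regions were chosen. Their differences are therefore partly set by the choice. At Trappc9 and Pla2g2c, called the same way at both stages, the differences were -0.19 and -0.41 and missed the threshold.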

How the results depend on the processing

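No paired analysis was possible because each condition has 1 library. Leaving out a library would leave no comparison.

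The number of distal regions was 735 when only regions of 1000 bp or longer were kept, with 669 above input in mESCs, and stayed within 1.5 times 1214 elsewhere. In PILECs, 52 were lost and 13 gained with 20 tags per window, 30 and 9 at 1000 bp or longer, 26 and 5 at 3-fold, and 15 and 3 when thinned to the mESC totals. Under the other alternatives 63 to 108 were lost and 14 to 27 gained. In mESCs, 3 were lost and 8 gained with 1 tag per position and strand, 3 and 7 at 1000 bp or longer, 3 and 5 at 3-fold, 95 and 52 with the fold alone, and 42 and 41 when divided by the input ratio within 5 kb, whose own counting error the test leaves out. Gained regions numbered 2, with 4 lost, with the scaling by tags near starts, 7 at over 10 kb and, chosen after seeing the data, 3 after division by the median ratio of all regions. Lost regions numbered 3 when RefSeq starts were added, also chosen after seeing the data. Between stages, with the scaling by tags near starts (chosen for this count after seeing the data), the genotype ratio was lower in PILECs in 9 and higher in 13 regions in place of 47 and 8. The summed log2 ratio in mESCs reversed to -0.12 with the same scaling. The causes were not tested. For lost and gained calls, the share of all enriched regions was computed with the fold alone and under no other alternative. Of 112 checks on named regions under changed duplicates, tag position, scaling and input, 93 kept their call, 19 did not pass it and 0 changed sign. The division by the input ratio and the scaling by tags near starts give no count above input in mESCs.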
